A study of Mus musculus with 3 samples.

Results

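The genes described here are the 3 ornithine decarboxylase antizymes (Oaz1, Oaz2 and Oaz3), both antizyme inhibitors (Azin1 and Azin2), ornithine decarboxylase itself (Odc1) and S-adenosylmethionine decarboxylase (Amd1). They were taken by symbol from the gene list of the deposited count tables, where all 7 were found among 31053 genes. UMIs were followed in testicular germ cells and Sertoli cells of adult mice, with 1 droplet scRNA-seq library for each of 3 genotypes, all from C57BL/6 males labelled as 8 weeks old. WT males carried the intact RNA helicase gene GRTH/DDX25 (Ddx25). KO males lacked GRTH, and KI males bore the human GRTH gene with an Arg to His change that leaves non-phosphorylated GRTH and removes its phosphorylated form. The labels name 1 animal per library while the methods describe pooled animals, so each genotype stands on 1 library and no difference between genotypes has a replicate check. All intervals given are 95% exact intervals that cover counting error only.

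Polyamines are small basic molecules that every dividing cell needs, and their synthesis starts when ornithine decarboxylase turns ornithine into putrescine. AMD1 supplies the decarboxylated S-adenosylmethionine from which spermidine and spermine are built. Antizymes bind ornithine decarboxylase subunits, block the enzyme and, for the ubiquitous forms, hand it to the proteasome. Antizyme inhibitors resemble ornithine decarboxylase without its activity and draw antizyme away from it. OAZ3 is the antizyme of haploid male germ cells, and AZIN2 is the inhibitor known from testis and brain. All 3 antizyme mRNAs carry a stop codon within the coding sequence, and full-length antizyme is made only when ribosomes slip by 1 base at that stop, an event that polyamines promote.

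The bases around that slip are shown because they are what makes a gene an antizyme and because Oaz3 differs from the other antizymes there. Each stretch is 75 bases of GRCm38 coding sequence, 5′ to 3′ on the gene's strand, and the capitals mark the last codon read in the first frame followed by the stop codon.
Oaz1: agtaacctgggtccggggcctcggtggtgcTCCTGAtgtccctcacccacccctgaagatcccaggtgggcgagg
Oaz2: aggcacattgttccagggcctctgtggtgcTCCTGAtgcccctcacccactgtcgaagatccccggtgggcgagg
Oaz3: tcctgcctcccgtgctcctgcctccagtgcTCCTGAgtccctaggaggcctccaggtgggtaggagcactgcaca
The Oaz1 stretch lies at chr10:80828262-80828336 on the plus strand, that of Oaz2 at chr9:65686239-65686313 on the plus strand and that of Oaz3 at chr3:94435993-94436067 on the minus strand. In the annotation the skipped base is the T of the stop codon, at position 80828295 of chromosome 10 for Oaz1, 65686272 of chromosome 9 for Oaz2 and 94436034 of chromosome 3 for Oaz3. Oaz1 and Oaz2 shared 62 of the 75 bases position by position, whereas Oaz3 shared 23 of 75 with either of them. The 6 bases in capitals were the same in all 3. The annotated reading frame of Oaz1 holds 68 codons before the slip and 159 after it, that of Oaz2 holds 32 and 157, and that of Oaz3, which opens with CTG in place of ATG, holds 86 and 157. The UMI counts below are counts of transcripts, so they say nothing of how often ribosomes slipped or how much antizyme protein was made.

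In the annotation of the same build, Oaz1 (ENSMUSG00000035242) spans chr10:80826656-80829290 and Oaz2 (ENSMUSG00000040652) spans chr9:65668001-65690300, both on the plus strand. Oaz3 (ENSMUSG00000028141) spans chr3:94432414-94443915 on the minus strand, where Tdrkh and Mrpl9 overlap it on the opposite strand. Azin1 (ENSMUSG00000037458) lies at chr15:38487427-38519266 and Azin2 (ENSMUSG00000028789) at chr4:128930233-128962442, both on the minus strand. Odc1 (ENSMUSG00000011179) lies at chr12:17544794-17551505 on the plus strand and Amd1 (ENSMUSG00000075232) at chr10:40287458-40302186 on the minus strand. The Amd1 transcript was 99.1% identical to that of its copy Amd2 over 3218 aligned bases and 97.4% identical in the last 500 bases, so Amd1 counts are uncertain. Amd2 had at most 2.35 CPM, the UMIs of the gene scaled to the UMI total of a cell class, in any germ cell class.

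The libraries held 82973909 (WT), 91388296 (KO) and 73150373 (KI) UMIs, of which 5859, 4059 and 1575 cells were kept, with medians of 5134, 4010 and 11727 UMIs per cell. Cells were clustered without the genes described here and named from marker genes as early spermatocyte (SP)-like, SP-like, round spermatid (RS)-like, elongated spermatid (ES)-like and Sertoli-like. The targeted gene matched the KO label: Ddx25 stood at 162 CPM in WT RS-like cells and at 1 UMI in all KO RS-like cells. In KI it stood at 119 CPM in RS-like cells. KI SP-like cells had 89.8 CPM against 216 in WT, and KI ES-like cells 90.4 CPM against 23.0 in WT. UMI counts do not show the Arg to His change, so the KI label was not checked. The libraries shared 16 (WT and KO), 37 (WT and KI) and 8 (KO and KI) cell barcodes, where random draws from the barcode list would give 3.50, 1.36 and 0.941. Free spermatid RNA was present in every library. In barcodes without a cell, Oaz3 made up 794 CPM in WT, 362 CPM in KO and 466 CPM in KI, and Azin2 made up 101, 67.5 and 75.1 CPM. RS-like cluster 2 was named on a small lead, with a marker score of 0.707 for RS against 0.492 for SP and 0 RS markers among its 10 leading genes. Without integration a cluster led by several of the same genes (743, 632 and 326 cells) was named SP-like, and RS-like cells then numbered 1061, 828 and 343 in place of 1981, 1769 and 702. RS-like cluster 8, with a score of 1.09 for RS against 0.445 for early SP, also had 0 RS markers among its 10 leading genes. Without integration a cluster led by several genes of cluster 8 (427, 846 and 114 cells) was left unnamed. Its scores were 0.626 for RS and 0.600 for SP. SP-like cluster 10 was led by mitochondrial and stress genes, with Hspa5 and Hsp90b1 among them. Early SP-like cluster 12 was also named on a small lead, with a score of 2.097 for early SP against 1.991 for spermatogonia (SG). A cluster led by several of its genes (112, 135 and 80 cells) was left unnamed without integration. At resolution 1 a cluster of 38, 37 and 24 cells, led by some of the same genes, was named SG-like. The part of spermatogonia in the early SP-like levels was not tested.

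In most clusters of haploid cells Oaz3 was the most abundant antizyme transcript. In WT it stood at 66.2 CPM in cluster 6, the deepest SP-like cluster, at 229 CPM in RS-like cluster 2, at 815 CPM in RS-like cluster 9, at 1095 CPM in ES-like cluster 7 and at 3596 CPM in ES-like cluster 3. These clusters are placed in order of the share of their UMIs in the transition protein and protamine genes Tnp1, Tnp2, Prm1 and Prm2. These are genes of chromatin condensation. Their share over the pooled libraries was 0.146% in cluster 2 and 24.0% in cluster 3. KO and KI followed the same order over the clusters named here that held enough of their cells, with 12.9, 163, 597 and 726 CPM in KO and 5.38, 150.2, 549 and 719.5 CPM in KI for clusters 6, 2, 9 and 7. Cluster 3 held 1139 WT cells but 10 KO cells and 1 KI cell, so its Oaz3 level has no counterpart in the mutants. The order was not unbroken. RS-like cluster 8, with a share of 0.334%, stood at 247, 91.3 and 85.8 CPM, in KO and KI below cluster 2. ES-like cluster 4 had the highest share of the 4 genes over the pooled libraries, at 31.8%. Its Oaz3 stood at 1389.8 CPM in WT, 509.6 CPM in KO and 708 CPM in KI, below cluster 3 of WT. The pooled order did not hold in each library. In KO the 4 genes made up 51171 CPM of cluster 4 and 82875 CPM of cluster 7, against 120544 and 83068 CPM in KI.

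The ubiquitous antizyme Oaz1 was highest, among germ cell clusters, in early SP-like cells, at 584 CPM (interval 548 to 621) in WT, 611 CPM (577 to 646) in KO and 588 CPM (558 to 619) in KI. In WT it stood at 156 CPM in cluster 6, at 97.5 CPM in cluster 2, at 118 CPM in cluster 9 and at 93.8 CPM in cluster 3. Oaz1 levels of the 3 genotypes overlapped in early SP-like cells and the level was lower in all later germ cell clusters. Oaz2, the other widely expressed antizyme, was 181 (WT), 195 (KO) and 199 CPM (KI) in SP-like cluster 13, 108, 132 and 119 CPM in cluster 2, and 53.1, 108 and 93.8 CPM in cluster 7. In WT it was lowest in cluster 3, at 17.0 CPM.

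**Figure D1:**
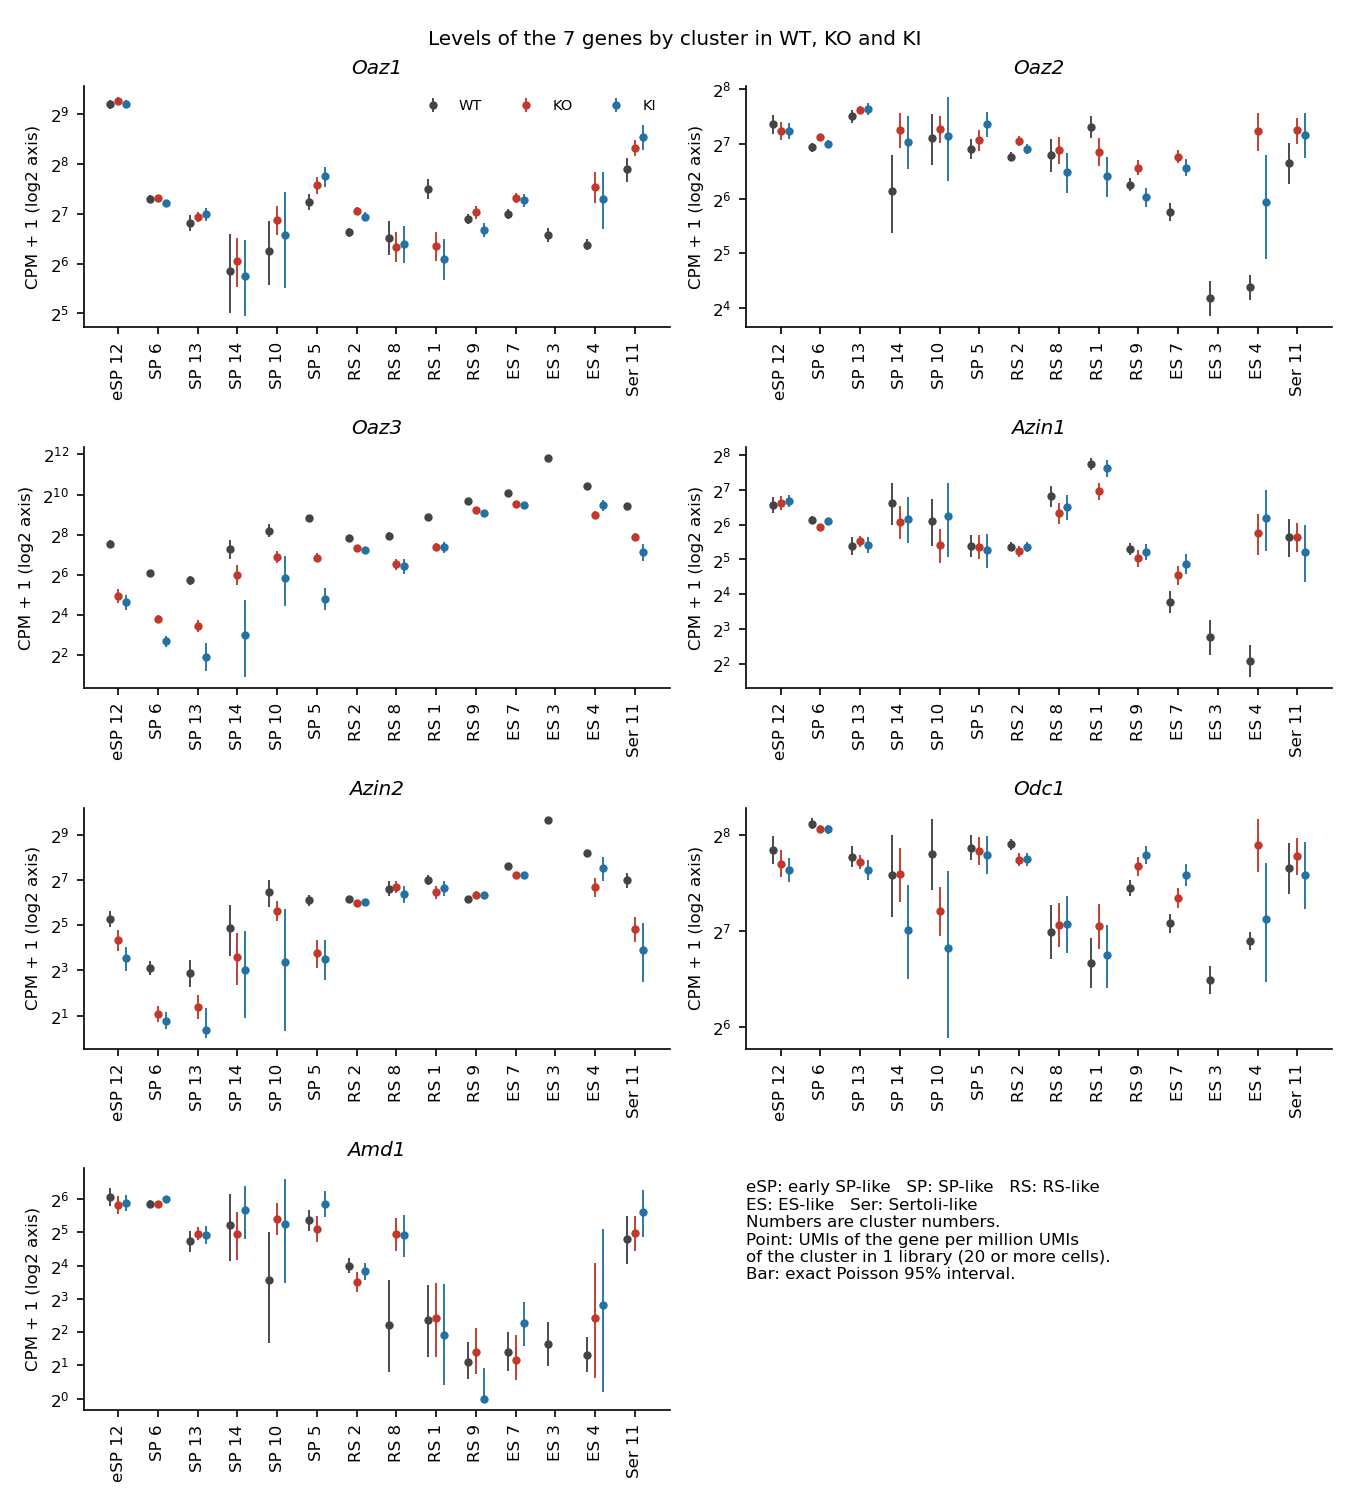
Levels of the 7 genes as CPM + 1, on a log2 axis, in germ cell clusters and the Sertoli-like cluster, ordered by class and then by the share of UMIs in Tnp1, Tnp2, Prm1 and Prm2, with 1 point for each library of at least 20 cells and bars for exact Poisson 95% intervals. Oaz3 goes from 66.2 CPM in WT cluster 6 to 3596 CPM in WT cluster 3, whereas Oaz1 is highest in early SP-like cluster 12 in all 3 libraries.

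Each molecule was counted once, at its 3′ end, so UMIs of different genes were set side by side without scaling to length. Of all antizyme UMIs, Oaz1 gave 62.5% in WT, 77.2% in KO and 77.2% in KI early SP-like cells. Oaz3 gave 19.3%, 4.15% and 1.92% in cluster 6, then 52.7% (51.3 to 54.2), 38.2% (36.6 to 39.9) and 38.4% (36.8 to 40.1) in cluster 2. The step was not seen in every SP-like cluster, since WT Oaz3 already gave 62.9% in cluster 5, 58.2% in cluster 10 and 55.1% in cluster 14. Free RNA at the empty-barcode ratio to Tnp1, Tnp2, Prm1 and Prm2, described below, would bring 436 of the 455 CPM in WT cluster 5. It would bring 180 of 294 CPM in cluster 10 and 242 CPM, against 154 CPM counted, in cluster 14. The part of free RNA in these shares was not tested. The WT interval did not overlap those of KO and KI in cluster 2, and the KO and KI intervals overlapped each other. In cluster 8 it was 55.2%, 31.7% and 33.3%, and Oaz2 gave more in both mutants, 40.5% in KO and 34.4% in KI. In cluster 1 the Oaz3 share was 58.1%, 45.8% and 52.2%. By cluster 9 the Oaz3 share was 80.9%, 72.8% and 76.9%, and in WT cluster 3 it was 97.0%. The antizymes together made up 344 CPM in WT cluster 6, 434 CPM in cluster 2, 1008 CPM in cluster 9 and 3707 CPM in cluster 3.

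**Figure D2:**
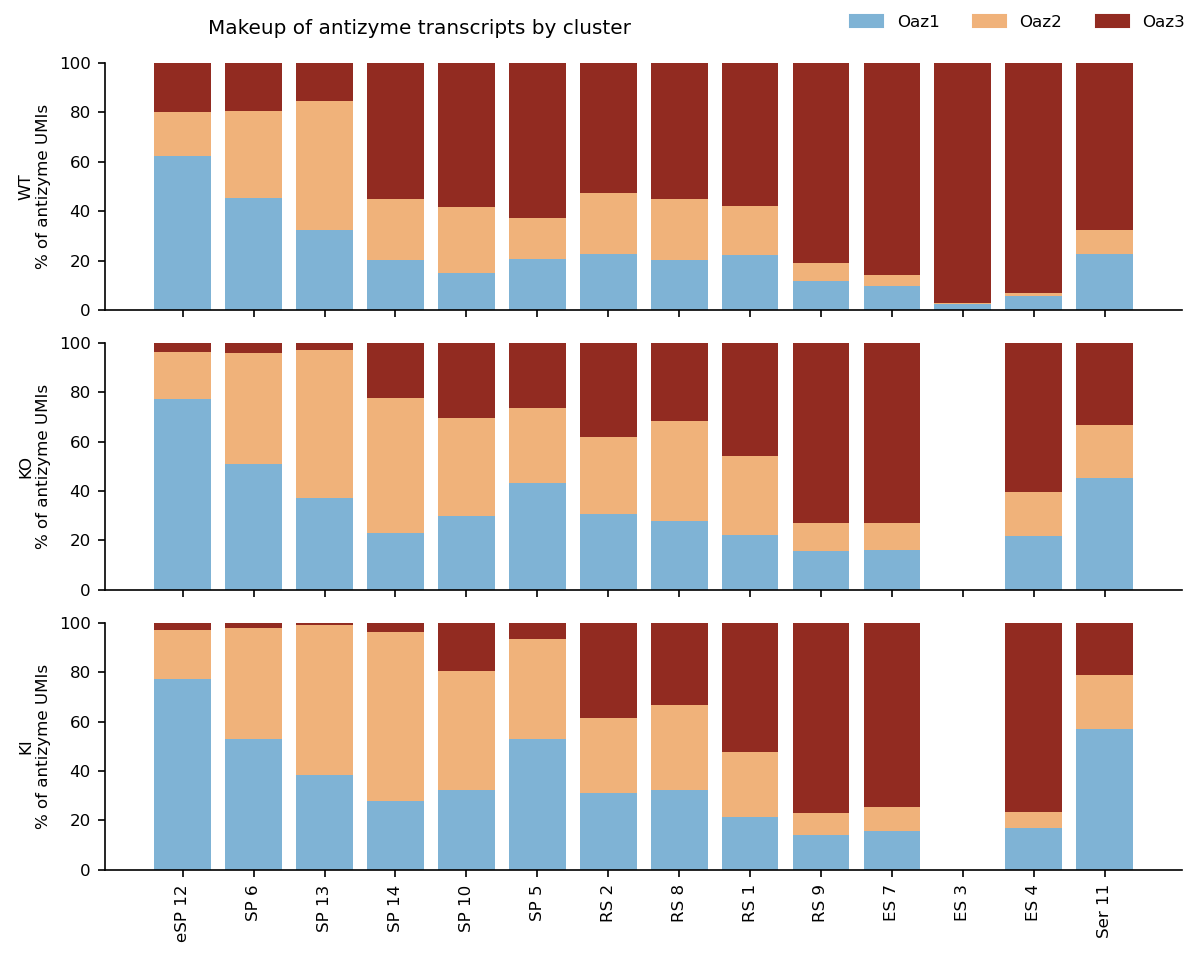
Share of antizyme UMIs, in percent, from Oaz1, Oaz2 and Oaz3 in each germ cell cluster and the Sertoli-like cluster, with WT, KO and KI in panels from top to bottom and no bar where a library has under 20 cells. The Oaz3 share in cluster 2 is 52.7% in WT, 38.2% in KO and 38.4% in KI, and in WT cluster 3 it is 97.0%.

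Azin1 gave most inhibitor UMIs in cluster 6 and Azin2 in clusters 2 and 7. Azin1, the widely expressed inhibitor, stood at 69.7 (WT), 60.2 (KO) and 67.3 CPM (KI) in cluster 6, at 40.3, 36.8 and 40.3 CPM in cluster 2 and at 12.8, 22.4 and 28.4 CPM in cluster 7. Its highest germ cell level was in the shallow RS-like cluster 1, at 214, 124 and 195 CPM, and there Azin2 gave 37.3%, 41.4% and 33.3% of inhibitor UMIs. In RS-like cluster 8 Azin2 gave 46.2%, 56.5% and 47.5%, and in SP-like cluster 5 it already gave 62.0% in WT, against 23.8% in KO and 21.7% in KI. In cluster 5 Azin2 stood at 67.0 (WT), 12.6 (KO) and 10.4 CPM (KI). At the empty-barcode ratio free RNA would bring 55.5, 9.59 and 3.15 CPM of this. Azin2, the testis form, stood at 7.62, 1.08 and 0.681 CPM in cluster 6, at 69.2, 61.2 and 64.4 CPM in cluster 2 and at 191, 148 and 147 CPM in cluster 7. Azin2 therefore gave 9.86%, 1.76% and 1.002% of inhibitor UMIs in cluster 6 but 63.2%, 62.5% and 61.5% in cluster 2, and 99.3% in WT cluster 3.

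Odc1, the target of the antizymes, had the narrowest range of the 7 genes over WT germ cell clusters as a ratio of highest to lowest, from 88.5 to 276 CPM. It stood at 276 (WT), 266 (KO) and 265 CPM (KI) in cluster 6, at 237, 212 and 213 CPM in cluster 2 and at 173, 203 and 219.8 CPM in cluster 9. For each Odc1 UMI there were 1.25, 1.17 and 1.06 antizyme UMIs in cluster 6, 1.83, 2.01 and 1.83 in cluster 2, 5.83, 4.05 and 3.25 in cluster 9, and 41.9 in WT cluster 3. Amd1 went the other way from Oaz3, with 65.9 (WT), 55.8 (KO) and 57.9 CPM (KI) in early SP-like cells, 56.6, 56.2 and 62.6 CPM in cluster 6, 15.0, 10.4 and 13.2 CPM in cluster 2 and 1.66, 1.26 and 3.81 CPM in cluster 7. In the first 3 of these clusters each mutant was within 2-fold of WT for Amd1. In SP-like cluster 10 it had 3 WT, 35 KO and 4 KI UMIs, at 10.7, 41.7 and 37.4 CPM. In RS-like cluster 8 it had 3 WT, 34 KO and 21 KI UMIs, a fold to WT of 8.13 (2.56 to 41.4) for KO and 8.04 (2.40 to 42.1) for KI. Clusters 10 and 8 were singled out after their values were seen, and the naming of cluster 8 as RS-like did not hold without integration.

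RS-like cells were compared first because the series asks how GRTH acts in round spermatids. A gene was called past 2-fold when its log2 ratio to WT, after adding 1 CPM, was at least 1 in size, among genes with a mean of at least 10 CPM over the libraries. Of the 7 genes, 6 passed this level filter in RS-like cells, and 0 were past 2-fold in KO and 0 in KI, where 3.55% and 5.85% of all 8620 genes tested were. Amd1 did not pass it, at 8.90, 8.91 and 9.72 CPM. Over all 7 genes, Amd1 among them, the median log2 ratio stood at -0.03 for KO and 0.01 for KI, beside 0.14 and 0.15 over all genes tested.

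Oaz3 had the largest ratio of the 6. It stood at 455 CPM in WT (446 to 465), with KO at 283 CPM (275 to 292) and KI at 261 CPM (253 to 269), from 8799, 4161 and 3788 UMIs. Both mutants were below WT and the intervals of WT and the mutants did not overlap. The fold to WT was 0.622 (0.599 to 0.645) in KO and 0.574 (0.552 to 0.596) in KI, log2 ratios of -0.68 and -0.80.

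Azin2 of the same cells stood at 74.3 CPM in WT (70.5 to 78.2), with KO at 71.8 CPM (67.6 to 76.3) and KI at 71.0 CPM (66.8 to 75.5), and all 3 intervals overlapped. Its fold to WT was 0.967 (0.892 to 1.05) in KO and 0.957 (0.882 to 1.04) in KI. Odc1 was as close, at 201, 197 and 206 CPM, with folds of 0.980 (0.933 to 1.03) and 1.02 (0.975 to 1.07). Oaz1 was 109.5, 123 and 111 CPM (log2 ratios of 0.16 and 0.02), Oaz2 was 99.4, 118 and 100.0 CPM (0.25 and 0.01), and Azin1 was 53.6, 45.4 and 49.4 CPM (-0.23 and -0.11).

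**Figure D3:**
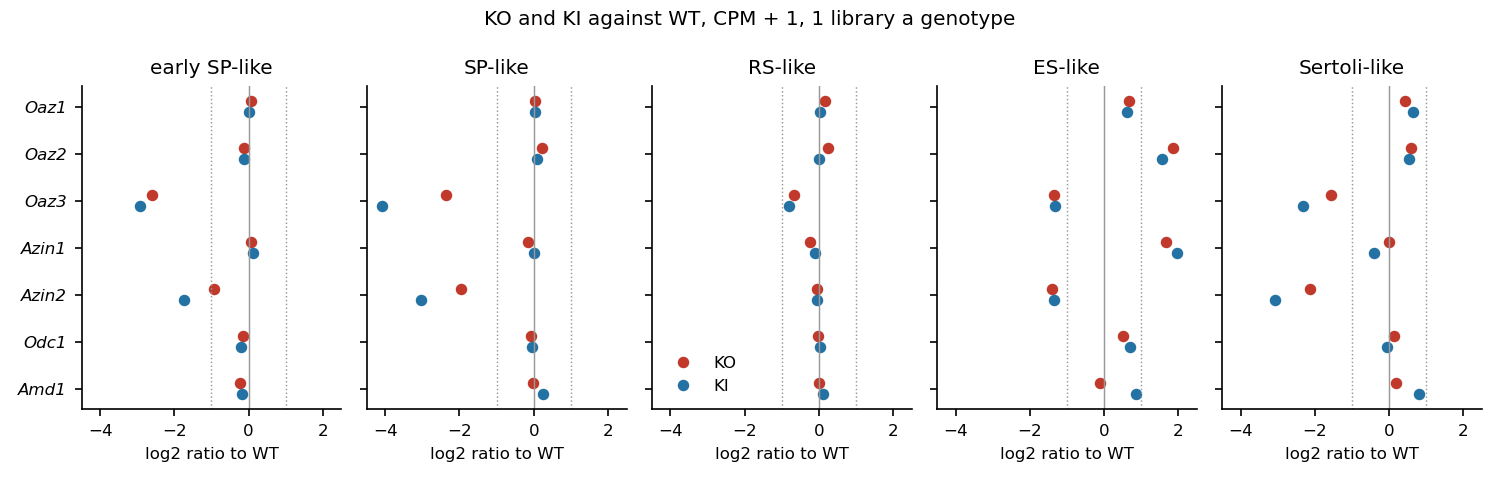
Log2 ratio to WT of each of the 7 genes in KO and KI, after adding 1 CPM, in early SP-like, SP-like, RS-like, ES-like and Sertoli-like cells, with dotted lines at 2-fold. In RS-like cells Oaz3 lies at -0.68 in KO and -0.80 in KI and no gene is past 2-fold, whereas Oaz3 is past it in the other 4 classes. Azin2 of SP-like cells is drawn although its mean was under 10 CPM.

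The RS-like class is made of clusters 2, 8, 1 and 9, and the size of the Oaz3 difference varied among them. In cluster 2 the fold to WT was 0.712 (0.665 to 0.761) in KO and 0.655 (0.612 to 0.701) in KI, and in cluster 9 it was 0.733 (0.699 to 0.768) and 0.674 (0.641 to 0.707). In clusters 8 and 1 Oaz3 was past 2-fold, at 247, 91.3 and 85.8 CPM in cluster 8 and at 469, 165 and 165 CPM in cluster 1. At the empty-barcode ratio free RNA would bring 115, 45.9 and 16.7 CPM of this in cluster 8. In cluster 1 it would bring 397, 108 and 87.4 CPM. In cluster 9 it would bring 533 (WT), 184 (KO) and 95.8 CPM (KI) of 815, 597 and 549 CPM, and with it taken off WT would lie below both mutants. Tnp1, Tnp2, Prm1 and Prm2 made up 32729, 8974 and 4934 CPM of cluster 9. The part of free RNA in these differences was not tested. Past 2-fold in cluster 8 were 2 of 7 members tested (Oaz3 and Amd1) in each mutant and 7.62% (KO) and 10.6% (KI) of all 9631 genes, and in cluster 1 they were 2 of 6 (Oaz1 and Oaz3) and 17.8% and 17.2% of all 9346 genes. Clusters 8 and 1 were shallow, with WT medians of 2596 and 1178 UMIs per cell against 11425.5 in cluster 2 and 13402 in cluster 9. Oaz1 of cluster 1 had 180.0, 80.4 and 67.4 CPM, while Azin2 stood at 127, 87.3 and 97.7 CPM.

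Shares of cells were set side by side at equal depth by thinning every cell to 1000 UMIs, which left out 194 WT, 150 KO and 8 KI RS-like cells. At that depth the share of RS-like cells with an Oaz3 UMI was 28.8% in WT (26.7 to 30.9), 17.3% in KO (15.5 to 19.2) and 15.4% in KI (12.8 to 18.3), where the unthinned shares were 63.3%, 45.1% and 57.7% at medians of 7918, 3461 and 15270.5 UMIs per cell. In the spermatocytes of cluster 6, taken as cells that should lack the spermatid antizyme, the thinned shares were 4.45%, 1.14% and 0%, and the unthinned ones 44.2%, 34.9% and 35.9% at medians of 31718.5, 35054 and 82842 UMIs. The count of 0 KI cells allows up to 1.98% of cells with a UMI at this thinned depth. For Azin2 the thinned RS-like shares were 7.95%, 6.86% and 7.93%, beside 0.685%, 0.456% and 0% in cluster 6.

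Free spermatid RNA was set beside the Oaz3 difference of RS-like cells. In barcodes without a cell there were 16.3 (WT), 20.5 (KO) and 19.4 (KI) Oaz3 UMIs for each 1000 UMIs of Tnp1, Tnp2, Prm1 and Prm2, and in RS-like cells there were 29.9, 80.3 and 142. The 4 genes together made up 15225 CPM of WT RS-like cells, 3523 CPM of KO and 1841 CPM of KI. If all of that were free RNA, it would carry 248, 72.3 and 35.7 CPM of Oaz3 at the ratio of the empty barcodes, and with that amount taken off the log2 ratio of Oaz3 to WT was 0.02 in KO and 0.12 in KI. For Azin2 the amount was 31.5, 13.5 and 5.76 CPM of 74.3, 71.8 and 71.0 CPM, and with it taken off WT would lie below both mutants. Transcripts of these 4 genes made in the cell were not told apart from free ones. Cluster 6 held more Oaz3 than the amount gives, 66.2 against 35.2 CPM in WT, 12.9 against 5.16 in KO and 5.38 against 2.08 in KI. Whether the rest was free RNA or made in those cells was not tested, so the amount cannot be taken as an upper limit. In cluster 2, the RS-like cluster where the 4 genes were rarest, the amount was 50.9, 12.8 and 5.45 CPM of 229, 163 and 150.2 CPM. How much of the RS-like Oaz3 difference free RNA makes up was not tested.

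**Figure D4:**
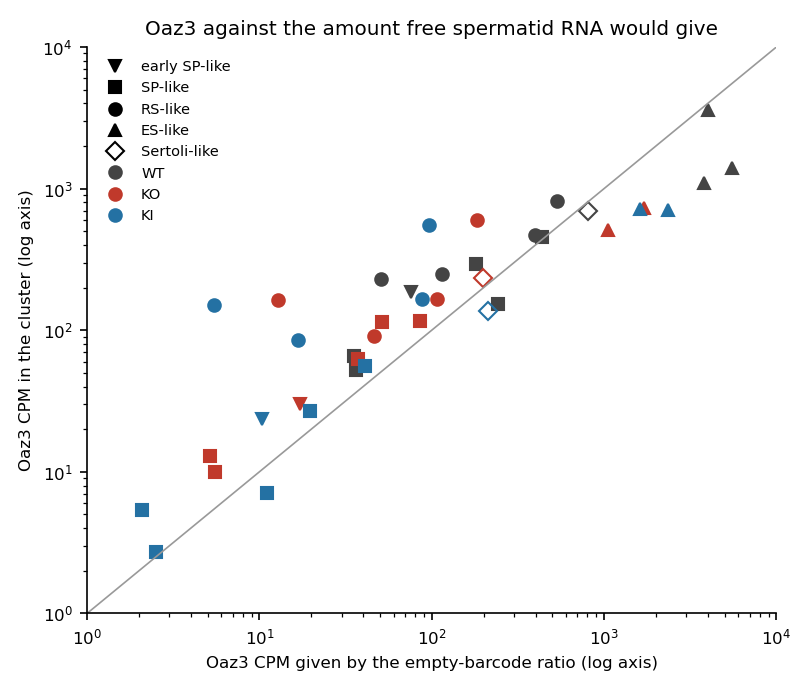
Oaz3 level of each cluster and library in CPM (vertical log axis) against the level that free RNA would give at the empty-barcode ratio of Oaz3 to Tnp1, Tnp2, Prm1 and Prm2 (horizontal log axis), with shape for the class, colour for the library and a line where both are equal. RS-like cluster 2 lies above the line in every library (229 against 50.9 CPM in WT, 150.2 against 5.45 CPM in KI), and the Sertoli-like cluster lies near it (697 against 804 CPM in WT).

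To compare cells of like share, RS-like and ES-like cells were binned by the share of their UMIs in Tnp1, Tnp2, Prm1 and Prm2. Under 0.5%, with 987 WT, 1348 KO and 615 KI cells, Oaz3 stood at 305, 229.7 and 246 CPM and Azin2 at 67.0, 69.7 and 69.3 CPM. From 0.5 to 2%, with 703, 407 and 96 cells, Oaz3 stood at 720.4, 485 and 549.7 CPM and Azin2 at 114, 75.2 and 98.9 CPM. In both bins WT had the highest Oaz3, while Azin2 was level across the libraries in the first and lower in KO than in WT in the second. From 2 to 5%, with 154, 123 and 44 cells, Oaz3 stood at 835, 617 and 601 CPM and Azin2 at 133, 96.7 and 89.7 CPM. From 5 to 10%, with 169, 291 and 95 cells, Oaz3 stood at 1084, 725 and 702 CPM and Azin2 at 177, 144 and 146 CPM. Both genes were highest in WT in these later bins.

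The bins share transcripts with the free RNA and their cells differed in depth. From 5 to 10% the medians were 1863 (WT), 7246 (KO) and 5464 (KI) UMIs per cell. From 10 to 20% only 31 KO and 18 KI cells stood beside 333 WT cells, and Oaz3 there was 1509, 801 and 799 CPM, but the median cell held no Acrv1, an acrosome gene of round spermatids, in WT and 489 CPM in KO. From 20% upward there were 1973 WT cells, 0 KO cells and 3 KI cells. Within 10% of the lower limit of the 5 to 10% bin lay 37, 52 and 18 cells, and of the 10 to 20% bin 48, 73 and 26 cells. The pooled share still differed within bins. It was 0.174%, 0.118% and 0.0772% in the lowest bin and 15.8%, 10.9% and 11.6% from 10 to 20%.

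**Figure D5:**
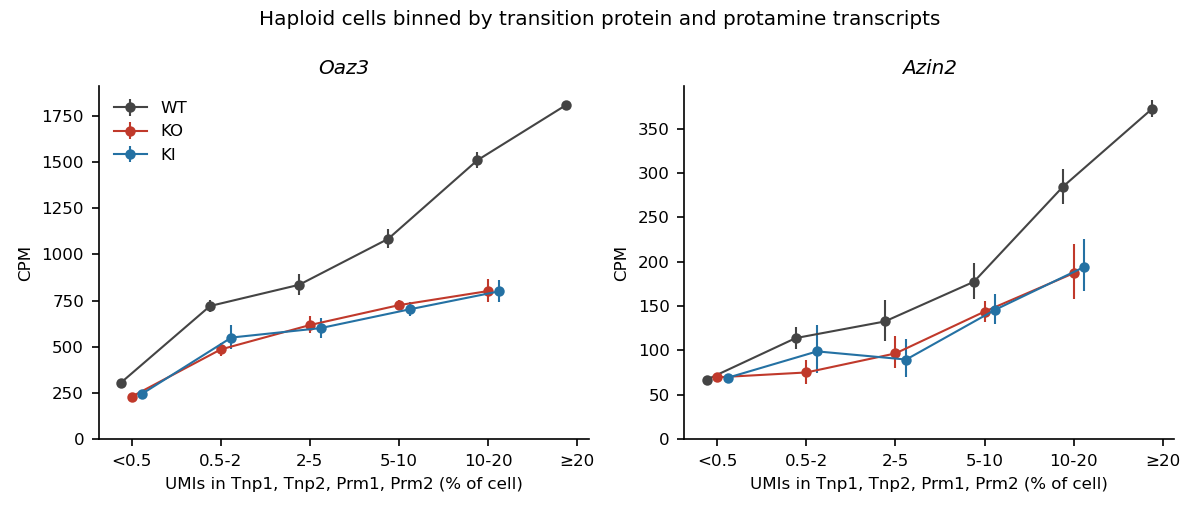
Levels of Oaz3 and Azin2 in CPM, with exact Poisson 95% intervals, in RS-like and ES-like cells of WT, KO and KI binned by the percent of their UMIs in Tnp1, Tnp2, Prm1 and Prm2, for bins of at least 10 cells. Oaz3 goes from 305 CPM in the lowest WT bin to 1810 CPM in the highest, and the KO and KI bins end at 801 and 799 CPM.

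In ES-like cells, 6 of the 7 genes passed the level filter and 4 were past 2-fold in KO and 4 in KI, where 61.2% and 59.3% of all 6633 genes tested were. With so many genes past 2-fold, the count of members says nothing particular to them. Oaz3 stood at 1823 CPM in WT (1803 to 1843), with KO at 712 CPM (689.9 to 735) and KI at 724 CPM (696 to 752), log2 ratios of -1.35 and -1.33. Azin2 stood at 383, 146 and 150.3 CPM (-1.39 and -1.34), and for both genes the mutants overlapped each other and lay below WT. Oaz2 was on the other side, at 30.4, 112 and 92.0 CPM (1.85 and 1.57), as was Azin1 at 7.09, 24.6 and 30.4 CPM (1.66 and 1.96). Oaz1 was 99.8, 161 and 153 CPM and Odc1 was 116, 166 and 188 CPM, with log2 ratios of 0.68 and 0.61 for Oaz1 and 0.51 and 0.69 for Odc1. The median log2 ratio over all genes tested was 1.20 in KO and 1.17 in KI, and Oaz1 and Odc1 lay below that median. With TMM factors, which scale to the bulk of the genes, Oaz1 (-0.53 in KO and -0.60 in KI) and Odc1 (-0.70 and -0.52) turned to below WT, and Oaz2 (0.65 and 0.37) and Azin1 (0.54 and 0.83) were no longer past 2-fold. The factors, by which CPM were divided, were 0.569 in WT, 1.33 in KO and 1.32 in KI, so Oaz3 and Azin2 lay further below WT with them.

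The ES-like class holds different cells in each genotype. Its 2338 WT cells were mostly of clusters 3 (1139 cells) and 4 (784), its 431 KO cells mostly of clusters 7 (246) and 4 (175) and its 169 KI cells mostly of clusters 7 (102) and 4 (66). RS markers summed to 811 (WT), 4489 (KO) and 4221 CPM (KI) in ES-like cells. In RS-like cells they summed to 3750, 3934 and 3541 CPM. The paper describes both mutants as lacking elongated spermatids. Without integration only 1 KO and 5 KI cells were ES-like, beside 2286 in WT. The ES-like ratios therefore set unlike cells side by side. Within cluster 7 alone, Oaz3 stood at 1095, 726 and 719.5 CPM (log2 ratios of -0.59 and -0.61) and Azin2 at 191, 148 and 147 CPM (-0.37 in both). Neither was past 2-fold there. Tnp1, Tnp2, Prm1 and Prm2 made up 233168 CPM of cluster 7 in WT, 82875 CPM in KO and 83068 CPM in KI. Cells of cluster 7 were thus not matched for these genes either. Oaz2 had 2.04 times the WT level (1.77 to 2.35) in KO and 1.77 times (1.51 to 2.07) in KI, and Azin1 had 1.75 times (1.30 to 2.38) and 2.23 times (1.63 to 3.04). Of the 6 genes tested, 1 was past 2-fold in each mutant in cluster 7, Oaz2 in KO and Azin1 in KI, where 41% and 41.2% of all 6660 genes tested were. At 1000 UMIs per cell, 65.8% of WT, 44.3% of KO and 43.1% of KI cells of cluster 7 held an Oaz3 UMI, where the unthinned shares were 96.4%, 93.1% and 96.1% at medians of 11425, 12072 and 14815.5 UMIs. In cluster 4 the log2 ratios of Oaz3 were -1.45 and -0.97 and those of Azin2 -1.52 and -0.70, larger in size than in cluster 7. Oaz2 had 7.58 times the WT level (5.60 to 10.2) in KO there and 3.04 times (1.43 to 5.76) in KI. Azin1 had 16.4 times (8.91 to 30.1) and 22.4 times (10.2 to 46.5), from 24, 24 and 12 UMIs. Tnp1, Tnp2, Prm1 and Prm2 made up 338518 (WT), 51171 (KO) and 120544 CPM (KI) of cluster 4, so unlike cells were set side by side there too. The share of all genes past 2-fold was not computed for cluster 4.

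In SP-like cells 6 genes passed the level filter and 1, Oaz3, was past 2-fold in each mutant, where 1.65% (KO) and 3.79% (KI) of all 7820 genes tested were. Oaz3 stood at 120.0 CPM in WT (115 to 126), with KO at 22.5 CPM (20.7 to 24.3) and KI at 6.17 CPM (5.16 to 7.33), 3 intervals without overlap. At the empty-barcode ratio, free RNA would bring 93.9, 11.2 and 3.26 CPM of this. ES marker genes summed to 6333, 660 and 207 CPM in the same cells. The other 5 genes tested lay close to WT. Oaz1 was 143, 147 and 146 CPM, Oaz2 was 132, 154 and 142 CPM, Azin1 was 60.8, 54.6 and 61.5 CPM, Odc1 was 257, 244 and 248 CPM and Amd1 was 47.3, 47.0 and 56.3 CPM. Azin2, under the filter, had 16.9, 3.60 and 1.18 CPM.

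In early SP-like cells, of 7 genes tested, 1 (Oaz3) was past 2-fold in KO and 2 (Oaz3 and Azin2) in KI, where 2.53% and 2.87% of all 9317 genes tested were. Oaz3 stood at 187, 29.9 and 23.7 CPM and Azin2 at 37.7, 19.3 and 10.6 CPM. ES marker genes summed to 5328, 1037 and 685 CPM in these cells. Odc1 was 228, 206 and 197 CPM, Azin1 was 94.1, 98.4 and 102 CPM and Oaz2 was 163, 150.2 and 150.1 CPM.

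Sertoli-like cells, the somatic nurse cells of the tubule, were 180 (WT), 244 (KO) and 75 (KI) barcodes with few UMIs each. Their own markers were detected in 10, 11 and 10 of 11 cases and summed to 3260.0, 2815 and 4224 CPM, while ES marker genes summed to 53746, 10763 and 11670.0 CPM in the same barcodes, highest in WT. The medians were 1408, 1574.5 and 1206 UMIs per cell. Of the 7 genes, 2 (Oaz3 and Azin2) were past 2-fold in KO and 2 in KI, where 12.8% and 22.3% of all 8766 genes tested were. The calls of Oaz3 in KO (log2 ratio of -0.56 without integration) and of Oaz3 and Azin2 in KI (-0.62 and -0.71 with classes by marker score) were lost under these alternatives. Oaz3 stood at 697 CPM (632 to 768), 235 (205 to 267) and 138 (102 to 182), and Azin2 at 125, 27.5 and 14.0 CPM from 74, 27 and 5 UMIs. At the empty-barcode ratio free RNA would bring 804, 198 and 212 CPM of Oaz3 and 102, 36.9 and 34.1 CPM of Azin2. For Oaz3 that is more than was counted in WT and KI and less in KO. Oaz3 was counted in other somatic cells of WT as well, at 765 CPM in Leydig-like, 769 CPM in stromal and myoid-like and 2949 CPM (59 UMIs) in macrophage-like cells, against 24.5, 91.1 and 156 CPM in KO and 16.9, 44.5 and 75.8 CPM in KI. At the empty-barcode ratio free RNA would bring 866 CPM in WT Leydig-like cells, 274 CPM in stromal and myoid-like cells and 111 CPM in macrophage-like cells, and the last 2 classes lay well above it. The macrophage-like value of WT comes from 12 cells.

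Oaz1 was higher in both mutants in Sertoli-like cells, at 236 CPM in WT (198 to 278), with KO at 318 CPM (284 to 356) and KI at 370.5 CPM (310.0 to 439). Both mutants lay above the WT interval and overlapped each other. Markers of other cells were higher in the mutants too. SP markers summed to 5244, 6534 and 6991 CPM in these barcodes, Leydig markers to 3.37, 67.3 and 73.0 CPM, stromal and myoid markers to 3.37, 45.9 and 39.3 CPM and macrophage markers to 10.1, 18.4 and 81.4 CPM, and their part in the Oaz1 result was not tested. The fold to WT was 1.35 (1.10 to 1.66) in KO and 1.57 (1.23 to 2.01) in KI, under the 2-fold line. These are log2 ratios of 0.43 and 0.65, beside a median over all genes tested of 0.19 in KO and 0.21 in KI. TMM factors were 0.908 in WT, 1.04 in KO and 1.05 in KI, so Oaz1 of both mutants lay closer to WT with them. Oaz2 stood at 99.3, 151 and 143 CPM, with folds of 1.52 (1.12 to 2.09) and 1.44 (0.971 to 2.13). Odc1 stood at 200.4, 218 and 191 CPM, Azin1 at 48.8, 49.0 and 36.5 CPM and Amd1 at 26.9, 30.6 and 47.7 CPM. In Leydig-like cells, of 15, 20 and 20 barcodes, Oaz1 stood at 467, 530.2 and 494 CPM.

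The rest of the polyamine pathway was followed in a list of 21 genes. In RS-like cells 6 of them passed the level filter and 0 were past 2-fold in either mutant, in SP-like cells 7 and 0, in early SP-like cells 11 and 0, and in ES-like cells 2 and 0. Of all genes tested, 3.55% (KO) and 5.85% (KI) were past it in RS-like and 1.65% and 3.79% in SP-like cells. The shares were 2.53% and 2.87% in early SP-like and 61.2% and 59.3% in ES-like cells. With so few pathway genes tested, these counts of 0 say little. Eif5a, whose protein carries the spermidine-derived residue hypusine, was the most abundant of the list in germ cell classes. It stood at 825, 876 and 831 CPM in SP-like and 457, 512 and 517 CPM in RS-like cells. Dhps and Dohh, the enzymes that form hypusine, had RS-like levels of 5.84, 7.35 and 7.79 CPM and of 26.1, 36.4 and 30.8 CPM. Mat2a, which makes S-adenosylmethionine, was 265, 259 and 256 CPM in early SP-like and 9.21, 11.9 and 9.92 CPM in RS-like cells, and its partner Mat2b was 42.4, 48.7 and 45.7 CPM in early SP-like cells. Sms, spermine synthase, was 31.2, 59.4 and 47.7 CPM in early SP-like cells and 1.81, 4.63 and 6.41 CPM in RS-like cells. Among transporters, Atp13a3 was 121, 112 and 135 CPM in early SP-like cells, Slc3a2 was 88.8, 83.2 and 88.5 CPM and Atp13a2 was 13.5, 9.13 and 9.79 CPM.

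In Sertoli-like cells 13 genes of the list were tested, of which 2 were past 2-fold and higher in KO (Smox and Mat2b), and in KI 4 were higher (Sat1, Smox, Slc3a2 and Mat2b) and 1 lower (Srm), beside 12.8% and 22.3% of all genes tested. They rest on few molecules: Smox, spermine oxidase, had 1, 10 and 9 UMIs, Sat1, which acetylates spermidine and spermine, had 4, 7 and 11, Mat2b had 4, 16 and 8, Slc3a2 had 16, 32 and 28, and Srm, spermidine synthase, had 6, 18 and 1. In CPM, Smox stood at 1.68, 10.2 and 25.3, Mat2b at 6.74, 16.3 and 22.5, and Slc3a2 at 26.9, 32.6 and 78.6.

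The genes most like each member were ranked by Pearson correlation of log2 CPM over 47 points, each a cluster in a library of at least 20 cells, among 12039 genes. The points share libraries, depth and free RNA, so the values are descriptions. Nearest to Oaz3 were Gapdhs, 1700009N14Rik, Smcp, Gm15517 and Spz1, all with r of 0.97, of which the sperm glycolysis gene Gapdhs and the sperm mitochondrial gene Smcp are ES markers used to name clusters. Both differed between libraries in the direction of Oaz3 in RS-like cells, Gapdhs at 395, 321 and 285 CPM and Smcp at 1300.5, 942 and 895 CPM. Nearest to Azin2 were Nbr1 and Clpb (both 0.92) and Akap1 (0.91). Between members, Oaz3 and Azin2 had r of 0.87 and Oaz3 and Amd1 had r of -0.74.

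The remaining members had other neighbours. Oaz1 was most like Ppp1ca and Atp5g2 (both 0.91) and Mrpl14 (0.90), Oaz2 was most like Ccdc34 and Cbwd1 (both 0.86), and Azin1 was most like Sf1 (0.86), 4732471J01Rik (0.83) and Rad18 (0.82). Odc1 was most like Dnajc2 (0.83), Ybx1 (0.79) and Srpk1 (0.78), and Amd1 was most like Ppp5c (0.92), Snapin (0.91) and Sdhd (0.91). Ppp1r16a and Ggn, whose proteins are described to bind OAZ3, did not follow it. Ppp1r16a stood at 22.2, 25.4 and 22.5 CPM in RS-like and 18.1, 21.7 and 26.5 CPM in ES-like cells, and Ggn at 198, 207 and 183 CPM in SP-like, 125, 147 and 156 CPM in RS-like and 71.9, 133 and 116 CPM in ES-like cells.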

How the data were processed

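The authors deposited raw gene-by-barcode UMI counts for each library, without cell calling, made per the labels with Cell Ranger 2.1.1 on mm10, although the file header names Cell Ranger 4. Cells were called here by UMI total and then against the profile of barcodes ranked 45000 to 90000 (false discovery rate 0.01, at least 500 UMIs), and kept with more than 500 genes and at most 10% mitochondrial UMIs. Libraries were integrated with Seurat 5.3.0 on 2000 genes and 100 components, without the genes described, and clustered by Leiden (resolution 0.3). Clusters were named from marker lists. Doublets were not removed, since Scrublet marked 2.49%, 0.123% and 0.317% of cells, which in KO and KI is too few for the call to have worked. UMIs were summed per class and library and given as CPM. With 1 library per genotype no test was made. Intervals are exact Poisson, Clopper-Pearson or exact conditional at 95%. The recovery of planted changes past 2-fold was checked on simulated class sums, but the intervals were not. The precision follows from the UMI totals of each class. Named besides the members were pathway genes of at least 50 CPM in any class or past 2-fold in the same direction in both mutants, Amd2 as the copy of Amd1, Srm, chosen after its values were seen, the partners, and the genes of highest correlation, 1 of which is not reported here. The members, marker lists and pathway list were chosen with earlier results of these data known. Positions and sequences come from GENCODE on GRCm38. Software was Python 3.11.15, scanpy 1.11.5, R 4.3.3 and, for TMM factors, edgeR 4.0.16, with alternatives in scaling, added CPM, cell calling, depth, integration, resolution, class assignment and doublet removal.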

Additional observations from a re-analysis of the deposited data

Results flagged for a closer look

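Oaz3 and Azin2 were counted in barcodes without a cell, which enter the comparisons between genotypes only as the measure of free RNA. Oaz3 made up 794 CPM there in WT, 362 CPM in KO and 466 CPM in KI. Azin2 made up 101 CPM in WT, 67.5 CPM in KO and 75.1 CPM in KI. Both were above the amount that a count of 0 allows.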

How the results depend on the processing

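Of 476 values that other settings gave for 56 log2 ratios in SP-like, RS-like, ES-like and Sertoli-like cells, 114 belong to the 14 of these ratios past 2-fold. Early SP-like cells were left out of this. All 114 kept their direction, 103 stayed past 2-fold, and 1 other ratio, Azin2 of KO SP-like cells with classes by marker score, was newly called. That log2 ratio was -1.10 by marker score and -1.96 in the main setting, where its mean of 7.23 CPM was under the level filter. Oaz2 and Azin1 in ES-like cells were under 2-fold with TMM factors (0.65 and 0.54 in KO, 0.37 and 0.83 in KI), and Oaz1 and Odc1 turned to below WT there (-0.53 and -0.70 in KO, -0.60 and -0.52 in KI). Oaz3 and Azin2 in ES-like cells were under it with cells called by UMI total alone (-0.85 and -0.78 in KO, -0.82 and -0.80 in KI). In Sertoli-like cells Oaz3 of KO was -0.56 without integration, and by marker score Oaz3 and Azin2 of KI were -0.62 and -0.71.

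The Oaz3 log2 ratio in RS-like cells stayed negative and under 2-fold in every setting named in the methods. It moved, in KO and KI, to -0.82 and -0.94 with TMM factors, -0.31 and -0.39 with classes by marker score and -0.63 and -0.74 without the cells of highest Scrublet score. It also moved to -0.56 in KO with cells called by UMI total alone, and in KI to -0.65 without integration and -0.64 at resolution 1. Among alternatives chosen after seeing the data, it was 0.025 and 0.12 with Oaz3 at the empty-barcode ratio taken off, -0.52 and -0.60 with the cluster 6 level taken off and -0.19 and -0.30 with the whole empty profile taken off. By cluster it was -1.50 and -1.50 in cluster 1, -0.49 and -0.61 in cluster 2, -1.43 and -1.52 in cluster 8 and -0.45 and -0.57 in cluster 9. Members past 2-fold in RS-like cells numbered 0 in both mutants, but 2 in each in cluster 1 alone (Oaz1 and Oaz3, beside 17.8% and 17.2% of all genes) and 2 in each in cluster 8 alone (Oaz3 and Amd1, beside 7.62% and 10.6%). Apart from the amounts taken off and the cells left out, the cause was not tested.

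Without integration ES-like cells numbered 2286, 1 and 5 and gave no value, and Sertoli-like cells with cells called by UMI total alone were too few. The whole empty profile could not be taken off in Sertoli-like cells. The share of all genes past 2-fold at a mean of at least 50 CPM was 0.585% (KO) and 0.718% (KI) in SP-like, 1.67% and 3.19% in RS-like and 5.18% and 10.3% in Sertoli-like cells. With no level filter it was 35.3% and 34.3% in ES-like and 36% and 40.6% in Sertoli-like cells. No paired analysis was possible because each genotype has 1 library and no result comes from a test. Few UMIs limit Amd1 in haploid cells and Amd1, Azin1 and Azin2 in Sertoli-like cells.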
